A study of Mus musculus with 30 samples.

Results

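The insulin response of FoxK2 KD cells was examined in 8 of the 30 sequenced samples: 4 samples of FoxK2 KD cells without insulin (basal) and 4 of the same cells given 100 nM insulin for 6 h. The cells were AML12, an immortalized mouse hepatocyte line, transfected with siRNA against FoxK2. All groups, Control included, passed through siRNA transfection and overnight serum starvation in medium with bovine serum albumin. Basal samples carry a time of 0 in the labels, while the growth protocol describes a mock treatment as long as the insulin treatment, so the basal cells may or may not have been kept for the same time. Knockdown was transient and partial, and the labels do not say whether the 4 samples of a group came from separate cultures, so the p-values measure the spread between samples of any origin. The other groups were Control (4 basal, 3 insulin), FoxK1 KD (4 and 4) and double knockdown cells (DKD, 4 and 3), and they entered the same model, so the spread behind each test was estimated over all 30 samples.

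FoxK1 and FoxK2 are forkhead transcription factors related to FoxO1. In liver cells, insulin acts through its receptor, IRS proteins, PI3K and Akt to drive FoxO proteins out of the nucleus, which lowers genes of fasting such as Irs2, and it raises SREBP activity, glycolysis and amino acid metabolism through mTORC1. FoxK proteins move the opposite way, from cytoplasm to nucleus, when the same pathway is active. The comparison asks which genes insulin changes in cells that keep FoxK1 but have less FoxK2.

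Foxk2, the targeted gene, was at 46.3, 49.4, 50.6 and 42.9 CPM (counts per 1000000 counts of the library) in the basal FoxK2 KD samples and at 63.5, 68.5, 68.9 and 62.1 CPM after insulin. The insulin samples were all above the basal samples. The change was 0.47 on the log2 scale (SE 0.09, adjusted p = 0.000239, edgeR), which is under the fold minimum used here for a call. Foxk2 in these cells was 33.7% of its Control level at basal and 40.4% after insulin. Foxk1 was at 83.7, 71.5, 66.3 and 58.0 CPM at basal and at 52.5, 50.3, 48.8 and 58.0 CPM after insulin, a change of -0.41 (SE 0.12, adjusted p = 0.00824), also under the fold minimum.

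Insulin changed 1211 of 11368 tested genes in FoxK2 KD cells. A gene was called when its adjusted p (FDR, edgeR quasi-likelihood test) was below 0.25 and its fold change above 1.5. By this rule 719 genes (6.32%) were higher and 492 (4.33%) lower after insulin. Of the called genes, 522 of the higher and 375 of the lower had no overlap between the 4 basal and 4 insulin samples. Over all 11368 tested genes, called or not, 1727 were higher and 1687 lower without overlap. Most responses were modest, with a median size of 0.77 on the log2 scale among called genes, and without the fold minimum 2847 genes were higher and 2778 lower. A fit of the 8 FoxK2 KD samples alone called 595 higher and 423 lower. The first principal component of the 8 samples held 47.8% of the variance and separated basal from insulin samples, while on the second (12.4%) basal replicate 1, at 19.64, stood apart from the other basal samples, at -4.40 to -10.61.

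Markers of hepatocytes and of bile duct were both present. Hepatocyte markers summed to between 2464 and 2653 CPM at basal and between 2281 and 2726 CPM after insulin, led by Krt18, Krt8 and Apob. Of the 12, 2 (Apoa1 and Cps1) averaged below 1 CPM. The sum does not describe each member: of 9 tested, 1 was called higher (Trf) and 2 lower (Alb and Tat). Over all tested genes 6.32% were higher and 4.33% lower. Krt8 and Krt18 had log2 changes of 0.55 and -0.34, under the fold minimum. Bile duct markers summed to between 1966 and 2230 CPM at basal and between 2323 and 2827 CPM after insulin, led by Spp1 and Krt19, with Epcam at 0. All 7 stellate cell and all 6 endothelial markers averaged below 1 CPM. Of 7 macrophage markers, Adgre1, Clec4f and Lyz2 were at 0, and the sum of 105 to 132 CPM at basal and 112 to 141 CPM after insulin was mostly Cd14. Transcripts of heat shock and of nuclear retention (Hsph1, Dnajb1, Neat1, Malat1 and others) summed to between 986.5 and 1229 CPM at basal and between 1375 and 1677 CPM after insulin, so these moved with the treatment, and their part in the results was not tested. RNA was measured in bulk and relative to the library, so fewer cells of a type and less RNA per cell cannot be told apart.

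Among genes that FoxO proteins switch on in fasting, 8 fell and 0 rose. The FoxO-type list had 26 tested members, of which 18 were not called, while over all tested genes 4.33% were lower and 6.32% higher. Its median log2 change was -0.38, beside 0.01 over all tested genes. Fbxo32, a ubiquitin ligase subunit of muscle wasting, was at 90.1, 94.1, 94.02 and 95.4 CPM at basal and at 23.4, 23.7, 23.4 and 28.4 CPM after insulin. All insulin samples were far below all basal samples, and the change was -1.92 on the log2 scale (SE 0.10, adjusted p = 1.37e-16). Depp1, a FoxO-induced regulator of autophagy, went from 14.5, 14.4, 15.6 and 13.9 CPM to 3.53, 2.48, 1.21 and 3.46 CPM. The 2 groups did not overlap, with a change of -2.41 (SE 0.30, adjusted p = 2.2e-07). Pik3ip1, an inhibitor of PI3K, fell to 32.6% of its basal mean (18.01 ± 1.82 CPM, SD, n = 4), and Txnip, which restrains glucose uptake, fell to 27.9% of its basal mean (10.9 ± 2.24 CPM, SD, n = 4). Foxo4, itself a FoxO factor, was also called lower. The fasting genes Pck1, G6pc and Igfbp1 were too scarce in this line to be tested. Klf15 and Pdk4, singled out after their values were seen, were scarce and had overlapping samples. Klf15 had an adjusted p of 0.207, and of 0.447 without insulin replicate 3, its highest value among the samples left out. Pdk4 had an adjusted p of 0.118, and of 0.349 without basal replicate 1.

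Genes for proteins that carry the insulin signal were called about as often as all tested genes. Irs2 and Igf1r were lower and Trib3 and Ddit4 higher. Of 34 tested genes for insulin and IGF signalling proteins, 2 were lower and 2 higher, beside 4.33% lower and 6.32% higher over all tested genes. The median of the list was 0.04, and Irs2 is also in the FoxO-type list. Irs2, the adaptor that links the insulin receptor to PI3K in liver, was at 202.8, 161.7, 174.6 and 156.7 CPM at basal and at 71.4, 66.0, 70.7 and 74.0 CPM after insulin. Every insulin sample was less than every basal sample, and the change was -1.30 (SE 0.10, adjusted p = 1.34e-11). Igf1r, the IGF1 receptor, fell to 53.0% of basal, from between 134 and 159 CPM to between 68.2 and 84.0 CPM (log2 change -0.92, SE 0.09, adjusted p = 4.77e-10). Trib3, a pseudokinase that binds Akt, rose from 11.7, 10.1, 11.9 and 12.8 CPM to 32.0, 28.6, 39.7 and 34.3 CPM (log2 change 1.52, SE 0.14, adjusted p = 6.67e-10). Ddit4, an inhibitor of mTORC1, was the other gene called higher. Pik3ca, a catalytic subunit of PI3K, had a log2 change of -0.48 (SE 0.09, adjusted p = 6.28e-05), under the fold minimum.

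The forkhead heptamer GTAAACA was looked for on either strand in RefSeq promoters (GRCm38.p6, 250 bases before to 50 after the start), because FoxO and FoxK proteins bind such letters. It was in 4 of 22 promoters of the FoxO-type list (18.2%), in 3.18% of the promoters of tested genes and in 4.05% of all promoters. Txnip, which was called lower, and Klf9, a Krüppel-like factor whose log2 change of -0.51 (SE 0.10, adjusted p = 0.000313) was under the fold minimum, both held it, and so did Bcl2l11, the BIM gene of cell death, which had a log2 change of 0.11 (SE 0.10, adjusted p = 0.459). These 3 were picked after their values were seen and are shown because they carry the same letters and had different values. Capitals mark the match in a short stretch of the gene's own strand, 5′ to 3′.
Txnip (chr3:96557826-96557852, + strand): tggaggcctgGTAAACAagggccaagt
Klf9 (chr19:23141116-23141142, + strand): gggggagaaaGTAAACAgagttgaatc
Bcl2l11 (chr2:128125801-128125827, + strand): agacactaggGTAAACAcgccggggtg
A match is a description of letters in this window, not evidence of binding.

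**Figure D1:**
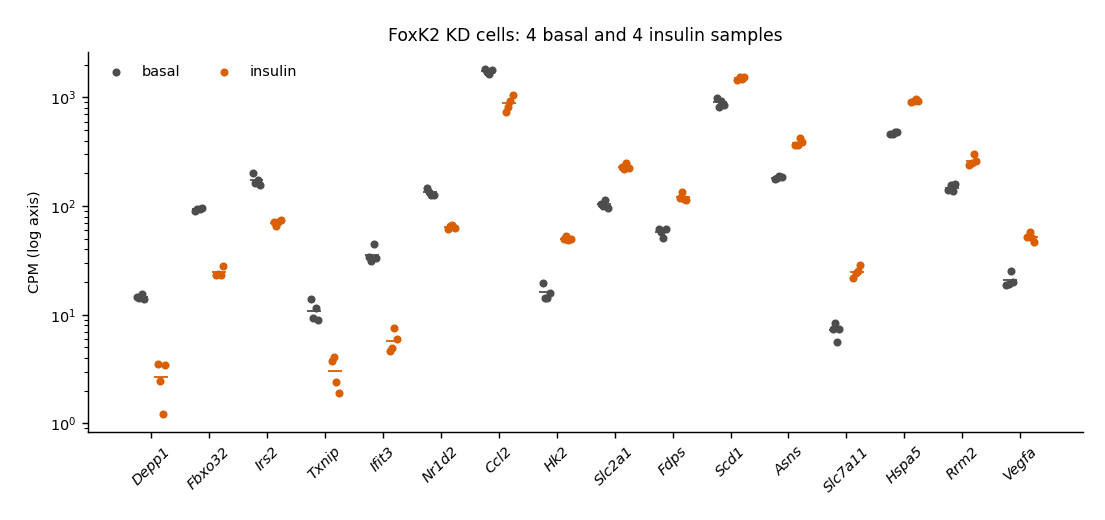
CPM on a log axis for 16 genes in FoxK2 KD cells, with a point for each of the 4 basal (grey) and 4 insulin (orange) samples and a line at each group mean. Depp1, Fbxo32, Irs2, Txnip, Ifit3, Nr1d2 and Ccl2 had all insulin samples below all basal samples, and Hk2 to Vegfa had all insulin samples above all basal samples.

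Of 24 tested genes of glucose uptake and glycolysis, 10 were higher, 0 lower and 14 not called, with a median of 0.53. Over all tested genes 6.32% were higher and 4.33% lower. Hk2, the hexokinase that traps glucose in insulin-responsive tissue, was at 19.8, 14.4, 14.3 and 15.8 CPM at basal and at 49.8, 52.5, 48.2 and 50.1 CPM after insulin. The rise was 3.13-fold (log2 change 1.66, SE 0.11, adjusted p = 2.17e-13), with no overlap. Slc2a1, the glucose transporter GLUT1, rose 2.22-fold, from 104.0, 101.2, 113.5 and 96.0 CPM to 228.0, 221.4, 246.6 and 224.6 CPM (adjusted p = 9.59e-10). Ldha, which makes lactate, rose 1.99-fold from a basal mean of 594 ± 23.2 CPM (SD, n = 4), and Pgk1 rose 1.75-fold. The other called members were Eno1, Eno2, Pfkl, Pfkp, Pgam1 and Tpi1, and Eno1 was lower in each of the 12 basal Control, FoxK1 KD and FoxK2 KD samples than in all 18 others. Of 9 pentose phosphate genes, only Pgd was called (1.70-fold higher, adjusted p = 1.51e-07), while G6pdx, the rate-limiting enzyme, had a log2 change of 0.52 (SE 0.11, adjusted p = 0.000396), under the fold minimum.

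Of 27 tested genes of cholesterol synthesis, 10 were higher, 0 lower and 17 not called, with a median of 0.52. The shares over all tested genes were 6.32% higher and 4.33% lower. Fdps, which makes farnesyl diphosphate, was at 61.1, 57.2, 50.4 and 62.0 CPM at basal and at 119.5, 135.1, 116.8 and 113.4 CPM after insulin. The groups were well apart, and the change was 1.07 (SE 0.10, adjusted p = 1.52e-09). Hsd17b7, Lss and Mvd, enzymes of the same pathway, rose 1.72-fold, 1.66-fold and 1.77-fold. Without the fold minimum, 25 members passed as higher and 0 as lower. Of 22 genes of fatty acid and triglyceride synthesis, 5 were higher, 0 lower and 17 not called, with a median of 0.32. Scd1, the stearoyl-CoA desaturase, was at 990.0, 813.5, 928.9 and 859.2 CPM at basal and at 1456, 1540, 1482 and 1555 CPM after insulin (log2 change 0.75, SE 0.08, adjusted p = 3.98e-09). Acly and Fasn, which supply acetyl-CoA and build palmitate, rose 1.55-fold and 1.57-fold, close to the fold minimum, and Acss2 rose 2.18-fold. Of 21 genes of fatty acid oxidation, 0 were higher and 2 lower (Acadm and Pdk4), with a median of -0.08. Acadm, the medium-chain acyl-CoA dehydrogenase, fell by 0.61 on the log2 scale (SE 0.08, adjusted p = 6.43e-07).

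ATF4 is the transcription factor that raises amino acid transport, synthesis and tRNA charging when amino acids are short or mTORC1 is active. Of 34 tested ATF4 and amino acid genes, 20 were higher, 0 lower and 14 not called, with a median of 0.67. Over all tested genes 6.32% were higher and 4.33% lower. Asns, asparagine synthetase, was at 177.2, 181.0, 187.4 and 185.3 CPM at basal and at 363.3, 362.8, 422.0 and 385.5 CPM after insulin. The rise was 2.10-fold (log2 change 1.07, SE 0.08, adjusted p = 9.96e-12), with basal samples close together. Slc7a5, the leucine transporter, rose 2.31-fold, Mthfd2, a mitochondrial folate enzyme, 2.79-fold, and Aars, the alanyl-tRNA synthetase, 1.89-fold. Slc7a11, the cystine transporter, went from 7.41, 8.47, 5.62 and 7.47 CPM to 21.8, 24.2, 25.2 and 28.7 CPM, a 3.45-fold rise (adjusted p = 5.41e-10). Atf4 itself was among the called members. Slc7a11 is also an NRF2 target, and the NRF2 list had 4 higher and 1 lower of 23 tested, with Srxn1 and Hmox1 among those that rose and the lipid peroxidase Gpx4 as the one that fell.

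Of 22 tested chaperone and unfolded protein genes of the endoplasmic reticulum, 11 were higher, 0 lower and 11 not called, with a median of 0.59. The shares over all tested genes were 6.32% higher and 4.33% lower. Hspa5 (BiP), the main chaperone of this compartment, was at 464.9, 461.0, 481.5 and 476.5 CPM at basal and at 897.5, 929.2, 957.7 and 928.9 CPM after insulin. Samples of each group were within a narrow range of each other, and the change was 0.98 (SE 0.06, adjusted p = 1.28e-13). Hyou1, a related chaperone, rose 2.50-fold, Pdia4 1.85-fold and Hsp90b1 1.63-fold. Xbp1, whose spliced product drives many of these genes, and the folding factors Calr, Pdia6 and Dnajb11 were among the other called members.

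Of 41 tested genes of DNA replication and S phase, 16 were higher, 0 lower and 25 not called, with a median of 0.55. Of 36 mitotic genes 2 were higher (Aurka and Aurkb) and 0 lower, with a median of 0.09. Over all tested genes 6.32% were higher and 4.33% lower, so the mitotic list held no larger share. Aurka lost its call in 4 of 17 alternatives and Aurkb in 1. The 2 lists were not tested against each other. Rrm2, a subunit of ribonucleotide reductase, was at 139.5, 155.3, 136.2 and 158.9 CPM at basal and at 237.7, 251.7, 299.1 and 257.3 CPM after insulin. The groups did not overlap (log2 change 0.82, SE 0.09, adjusted p = 8.92e-09). Mcm5, a subunit of the replicative helicase, rose 1.69-fold, and Cdc6, which loads that helicase, rose 1.93-fold. E2f2, of the E2F family that drives replication genes, rose by 1.91 (SE 0.35) on the log2 scale, and Ccne1, Ccne2 and E2f1 were also called higher. Among 17 G1 genes, 1 was higher (Ccnd3) and 1 lower (Rbl2), near the shares over all tested genes. Ccnd3 lost its call in 5 of 17 alternatives. Rbl2, a pocket protein of resting cells, fell to 52.3% of basal (adjusted p = 1.3e-08). Of 35 genes of ribosome biogenesis, 2 were higher and 1 lower, no larger a share than over all tested genes. Rrp12, an export factor of ribosomal subunits, rose 1.93-fold (adjusted p = 2.35e-11), while Npm1, nucleophosmin, fell to 53.2% of basal, from 1004, 1131, 1204 and 1158 CPM to 571.2, 587.0, 639.2 and 593.1 CPM (adjusted p = 1.05e-10). Npm1 is among the genes that were higher in each of the 12 basal Control, FoxK1 KD and FoxK2 KD samples than in all 18 others.

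**Figure D2:**
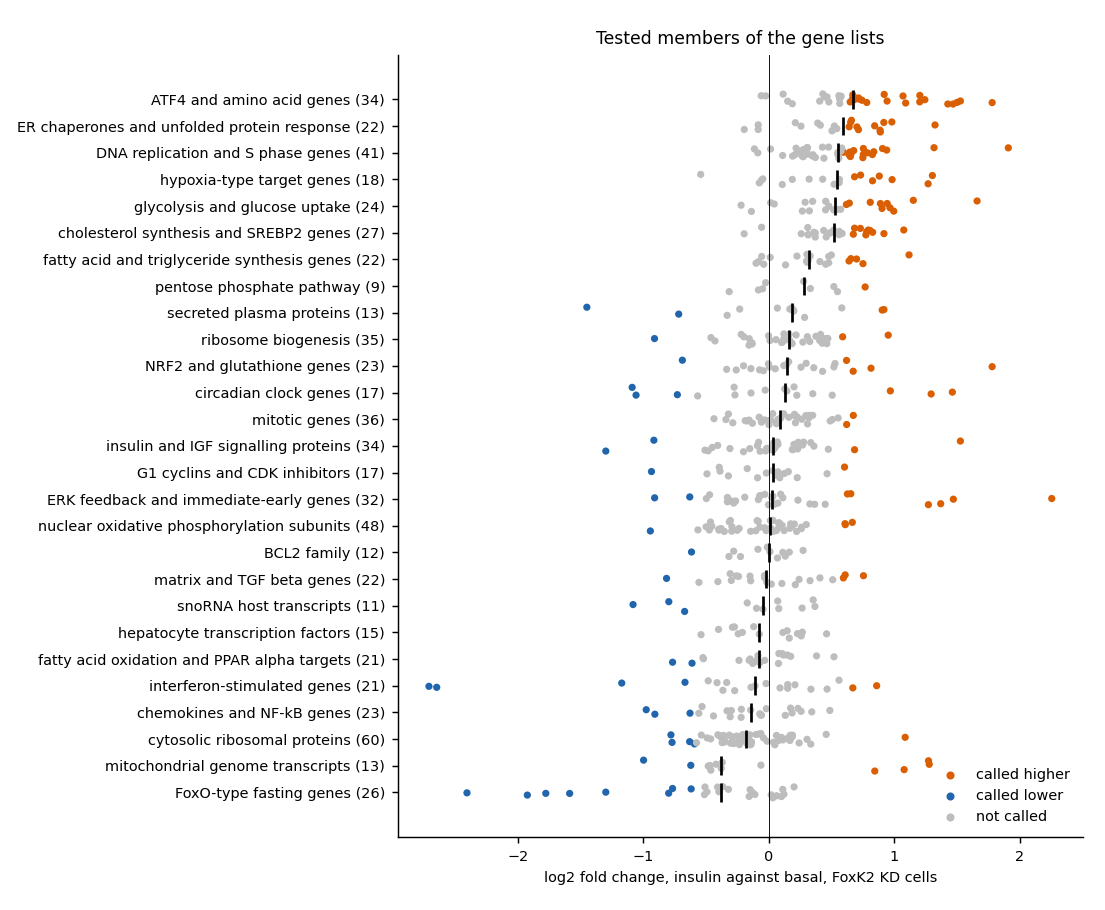
Log2 fold change by insulin in FoxK2 KD cells for each tested member of 27 gene lists, ordered by the list's median (black bar), with the number tested in brackets. Orange points were called higher, blue points lower and grey points not called, and the ATF4, chaperone, S phase, hypoxia-type, glycolysis and cholesterol lists held medians above 0.5, while the FoxO-type list was lowest at -0.38.

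Hypoxia-type targets, which overlap with glycolysis and with mTORC1 output, had 7 of 18 higher and 0 lower, with a median of 0.54. Over all tested genes 6.32% were higher and 4.33% lower. Vegfa, the endothelial growth factor, rose from 18.8, 19.3, 25.1 and 20.2 CPM to 51.8, 58.3, 50.4 and 46.3 CPM (2.48-fold, adjusted p = 8.92e-07). Egln3, a prolyl hydroxylase of HIF, rose 2.43-fold. The ERK feedback and immediate-early list had 6 of 32 higher and 2 lower. Areg, Ereg, Fosl1, Etv4, Spry4 and Klf4 were higher, and Myc and Egr1 lower. Without single samples 4 to 6 of this list were higher and 1 to 2 lower, and with the trend on GC and length taken out 4 and 3. Etv4 and Klf4 lost the call in some of the fits without a sample and with that trend taken out. Ereg, epiregulin, went from 8.03, 5.18, 6.48 and 7.03 CPM to 16.5, 19.3, 17.6 and 20.5 CPM (log2 change 1.47, SE 0.22, adjusted p = 5.38e-06). Fosl1, an AP-1 subunit, had a log2 change of 1.27 (SE 0.20, adjusted p = 8.01e-06). Myc fell from between 57.9 and 81.3 CPM to between 34.6 and 47.9 CPM (log2 change -0.63, SE 0.11, adjusted p = 4.8e-05), close to the fold minimum.

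The largest falls of protein-coding genes by the naming rule were of interferon-induced transcripts. Ifit3, an interferon-induced antiviral protein, was at 33.7, 31.1, 44.7 and 33.4 CPM at basal and at 4.63, 4.95, 7.58 and 5.98 CPM after insulin. Its near-identical neighbour Ifit3b went from 30.6, 33.7, 32.4 and 25.7 CPM to 4.41, 4.95, 4.85 and 4.41 CPM. The groups did not overlap in either, with changes of -2.65 (SE 0.17, adjusted p = 7.7e-14) and -2.71 (SE 0.17, adjusted p = 5.88e-14), although the 2 genes share sequence and the counting could have split reads between them. Ifit2 fell to 43.9% of basal (adjusted p = 1.44e-08). Of 21 tested members of the interferon list 4 were lower, 2 higher (Cmpk2 and Usp18) and 15 not called, with a median of -0.11. Over all tested genes 4.33% were lower and 6.32% higher. Usp18 lost its call without basal replicate 1 or 2 or insulin replicate 3. The interferon-stimulated response element (GAAA, any 2 bases, GAAA, either strand) was in 9 of 17 promoters of this list (52.9%) and in 3.47% of those of tested genes. Ifit3 and Ifit3b hold the element in the same letters, printed because the pair fell together, while Gbp2, an interferon-induced GTPase with a log2 change of -0.48 (SE 0.20, adjusted p = 0.066) that was not called, was picked after its value was seen because it holds the same core letters. Capitals mark the match.
Ifit3 (chr19:34583365-34583391, + strand): gtggtaagTTTCACTTTCctcttctgg
Ifit3b (chr19:34607761-34607787, + strand): gtggtaagTTTCACTTTCctcttctgg
Gbp2 (chr3:142620596-142620622, + strand): tcttttagTTTCACTTTCactgtctta

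Among 23 tested chemokine and NF-kB genes, 3 were lower (Ccl2, Ccl20 and Cxcl10) and 0 higher, with a median of -0.15. The shares over all tested genes were 4.33% lower and 6.32% higher. Ccl2, the monocyte chemoattractant was at 1815, 1714, 1650 and 1775 CPM at basal and at 727.3, 823.6, 931.3 and 1050 CPM after insulin. Insulin samples were all well below basal samples, and the change was -0.98 (SE 0.11, adjusted p = 5.77e-08). Vcam1, an adhesion molecule for leukocytes, had a log2 change of -0.56 (SE 0.08, adjusted p = 1.25e-06), just under the fold minimum.

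Of 17 tested clock genes, 3 were higher (Arntl, Ciart and Nfil3) and 3 lower, Nr1d2 and Dbp among them. Over all tested genes 6.32% were higher and 4.33% lower. Arntl (BMAL1), the activating arm of the clock, was at 8.03, 8.71, 9.08 and 8.13 CPM at basal and at 20.9, 17.1, 21.2 and 24.6 CPM after insulin (log2 change 1.29, SE 0.17, adjusted p = 7.61e-07). Nr1d2 (REV-ERB beta), a repressor of Arntl, went from 147.9, 134.1, 125.8 and 127.0 CPM to 61.3, 64.9, 67.7 and 62.7 CPM (log2 change -1.06, SE 0.09, adjusted p = 3.56e-11). Nr1d2 is also among the genes higher in each of the same 12 basal samples than in all 18 others. Nfil3, a repressor of the D-box, rose 1.97-fold. Samples of Arntl, Nr1d2 and Nfil3 did not overlap between the groups. Whether basal cells were kept as long as insulin cells is not known, so insulin and elapsed time cannot be told apart for these genes. Dbp, an activator at the D-box, fell to 46.7% of basal. The E-box CACGTG was in 5 of 14 clock promoters (35.7%) and in 12.3% of those of tested genes. The promoter of Ciart, a repressor in the clock at 1.18 to 1.51 CPM at basal and 2.52 to 5.46 CPM after insulin (log2 change 1.46, SE 0.42, adjusted p = 0.00814), holds it at 3 places and was picked for that reason after its values were seen, with the match in capitals and written along the gene's minus strand.
Ciart, upstream match (chr3:95882328-95882354, − strand): catctagagtCACGTGttgccggtaag
Ciart, middle match (chr3:95882270-95882296, − strand): cagggggaggCACGTGcagaaccgcac
Ciart, match nearest the start (chr3:95882256-95882282, − strand): tgcagaaccgCACGTGtctgggagggg

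Secreted plasma proteins, matrix genes and mitochondrial transcripts were called in both directions, beside 6.32% higher and 4.33% lower over all tested genes. Of 15 tested hepatocyte transcription factors, 0 were called, and Hnf4a had a log2 change of 0.23 (SE 0.08, adjusted p = 0.0385). Of 13 secreted plasma proteins 2 were higher (Afp and Trf) and 2 lower (Igfbp4 and Alb). Igfbp4, which binds IGFs, fell to 60.7% of 1451 ± 88.2 CPM (SD, n = 4). Alb, singled out after its values were seen, was called lower with basal replicate 2 at 65.2 CPM against 4.01, 4.76 and 7.25 CPM in the other basal samples and 6.33 to 8.504 CPM after insulin, and without that sample its change was 0.45 with an adjusted p of 0.608. Of 60 cytosolic ribosomal proteins 1 was higher and 4 lower, with a median of -0.18. These genes have many processed pseudogenes that share reads with them, so their counts are uncertain. Of 48 nuclear subunits of oxidative phosphorylation 3 were higher and 1 lower, and with the trend on GC and length taken out 1 and 4. Of 13 tested transcripts of the mitochondrial genome, 4 were higher and 2 lower, with a median of -0.38. The 4 that were higher (mt-Atp6, mt-Co2, mt-Co3 and mt-Nd3) were scarce, at 10.6 CPM or less in every sample, while mt-Nd4, of complex I, fell from 1276, 1241, 1225 and 1158 CPM to 569.4, 514.7, 678.9 and 690.1 CPM (log2 change -0.999, SE 0.16, adjusted p = 1.41e-05). Without single samples 2 to 4 of this list were higher and 1 to 3 lower. The call of mt-Atp6 was lost without basal replicate 2 or 3 or insulin replicate 1 or 2 (adjusted p of 0.261 to 0.399), and that of mt-Nd3 without basal replicate 1, 2 or 3 or insulin replicate 2 (0.259 to 0.458). Among 22 matrix genes 3 were higher and 1 was lower, Ccn1 (log2 change -0.82, SE 0.14, adjusted p = 5.69e-05). Of 12 genes of the BCL2 family, Bcl2 alone was called, lower by 0.62 (SE 0.15, adjusted p = 0.00244), and of 11 snoRNA host transcripts 3 were lower, Zfas1 among them.

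Several of the largest rises were of scarce transcripts. Stc1, stanniocalcin 1, a secreted regulator of calcium and phosphate, was at 0.62, 0.71, 0.65 and 0.66 CPM at basal and at 5.07, 5.78, 3.94 and 5.67 CPM after insulin. It rose 7.78-fold with no overlap (log2 change 2.89, SE 0.41, adjusted p = 1.54e-06), on 86 counts over the 8 samples. Slc16a6, a solute carrier, rose by 2.52 (SE 0.34) and Mmp13, a collagenase, by 1.798 (SE 0.37) on the log2 scale. Papln, E2f2, Cdh24, Dpf1, Slc7a11 and 1110065P20Rik were also among the 10 largest rises of protein-coding genes, with changes of 1.73 to 1.94. On the other side, Tcp11l2 fell to 21.9% of basal, from 24.4, 26.6, 22.3 and 27.04 CPM to 4.41, 6.05, 5.16 and 6.30 CPM (adjusted p = 3.7e-11). Serpina3g, a serine protease inhibitor, fell to 28.3% of 5.47 ± 0.16 CPM (SD, n = 4), and Dnm3, a dynamin, and Zbed5 fell by 1.77 (SE 0.30) and 1.89 (SE 0.32).

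The insulin effect in FoxK2 KD cells was set against that of the other genotypes, which share no samples with it. In Control cells 691 genes (6.08%) were higher and 676 (5.95%) lower. Of the genes higher in FoxK2 KD cells, 406 were also called higher in Control cells (56.5% of the FoxK2 KD list and 58.8% of the Control list), and 254 were called lower in both (51.6% and 37.6%). Across the 11368 genes the log2 changes of FoxK2 KD and Control cells had a Pearson correlation of 0.723, a description over genes that are not independent. In FoxK1 KD cells 933 genes (8.21%) were higher and 530 (4.66%) lower, with 461 and 234 shared with FoxK2 KD cells and a correlation of 0.746. In DKD cells 535 (4.71%) were higher and 430 (3.78%) lower, with 268 and 148 shared and a correlation of 0.541. In all 4 genotypes, 160 genes were called higher and 82 lower, while 119 genes higher and 135 lower in FoxK2 KD cells were called that way in no other genotype. Calls in a single genotype do not show a difference. The difference was tested against Control and DKD cells, and not against FoxK1 KD cells.

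Among the 11368 tested genes, none was called for a difference in insulin effect between FoxK2 KD and Control cells. By edgeR, 0 genes (0%) had a larger and 0 (0%) a smaller change in FoxK2 KD cells, and the smallest adjusted p was 0.883. At an unadjusted p below 0.05 there were 625 genes with edgeR, 514 with DESeq2 and 629 with limma-voom, and DESeq2 and limma-voom also called 0. By chance alone, a share of about 0.05 of the 11368 tested genes falls below that p. With every gene of at least 1 count in any sample tested (23784 genes), 28 were called higher and 9 lower, with a smallest adjusted p of 1.12e-25. The difference from Control on the log2 scale was -0.07 for Fbxo32 (SE 0.15), -0.09 for Hk2 (SE 0.17), 0.04 for Asns (SE 0.12) and 0.11 for Hspa5 (SE 0.09). The list medians were -0.38 in FoxK2 KD and -0.38 in Control cells for the FoxO-type list, 0.67 and 0.69 for the ATF4 list, and 0.53 and 0.35 for glycolysis. A p that misses the threshold does not show that the 2 responses were equal.

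**Figure D3:**
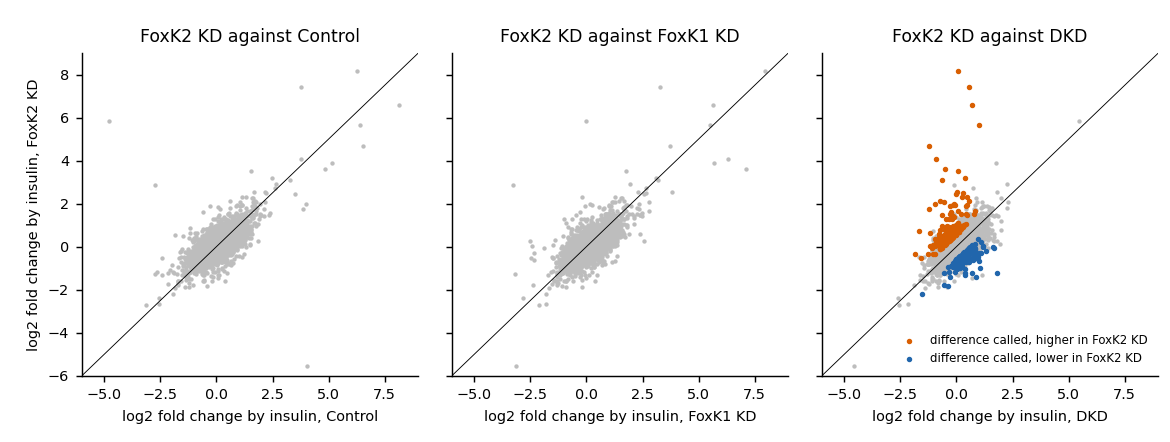
Log2 fold change by insulin in FoxK2 KD cells (vertical) against Control, FoxK1 KD and DKD cells (horizontal), with a point for each of 11368 genes and the line of equal change. Coloured points are genes whose difference in insulin effect was called, none against Control and 193 higher and 177 lower against DKD, and the difference from FoxK1 KD was not tested.

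Against DKD cells, 193 genes (1.7%) had a higher insulin effect in FoxK2 KD cells and 177 (1.56%) a lower one. Ccl2 fell by 0.98 in FoxK2 KD cells and had a log2 change of 0.17 in DKD cells, a difference of -1.14 (SE 0.17, adjusted p = 0.000224). Its basal mean was 1738 ± 72.1 CPM in FoxK2 KD (SD, n = 4) and 754 ± 64.8 CPM in DKD cells (SD, n = 4), while after insulin the means were 883 ± 139 (n = 4) and 846 ± 105 CPM (n = 3). The basal samples of the 2 genotypes did not overlap, and their insulin samples did. In Control cells Ccl2 had a log2 change of -0.73. Ccl2 is among the 83 genes that were higher in each of the 12 basal Control, FoxK1 KD and FoxK2 KD samples than in all 18 others, DKD basal samples included. Vcam1 differed by -0.62 (SE 0.12, adjusted p = 0.00566), with basal means of 301 ± 17.4 and 158 ± 7.55 CPM. Its basal FoxK1 KD samples were at 142.6, 147.9, 131.7 and 152 CPM, so the low basal level was not particular to DKD cells. The difference for mt-Nd4 was -1.08 (SE 0.24, adjusted p = 0.0176), with basal means of 1225 ± 49.4 and 562 ± 99.2 CPM. Fbxo32 fell by 1.40 in DKD cells, a difference of -0.52 with an adjusted p of 0.0584 that is under the fold minimum. Of the lists, oxidative phosphorylation had 5 of 48 with a lower effect in FoxK2 KD cells and 0 with a higher one, chemokines 2 and 0 of 23, and transcripts of the mitochondrial genome 3 and 2 of 13. Each other list had at most 1 gene called, and the cholesterol, fatty acid synthesis, glycolysis and chaperone lists had 0.

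The 5 genes with the largest higher effect than in DKD cells were Gm42939, Rps2-ps10, Gm43712, Gm21399 and Rpl39-ps, of which the last 4 are annotated as pseudogenes. Gm42939, a transcript inside an intron, was at 0 in all 4 basal FoxK2 KD samples and at 5.29, 12.7, 9.40 and 13.5 CPM after insulin, at least 56.8-fold higher against a floor of 3 counts over the basal group. Rps2-ps10, a ribosomal pseudogene, had 1 count in the 4 basal samples and a mean of 9.43 CPM after insulin, a ratio of 157 (95% interval 28.2 to 6210, exact Poisson for the basal count). Gm21399 rose by 3.20 (SE 0.44) on the log2 scale. These intervals and floors cover counting error only. Gm42939 and Rps2-ps10 were below 1 CPM in the basal Control, FoxK1 KD and FoxK2 KD samples and present in all DKD samples, as the plot of 5 genes shows. More widely, 52 genes were lower in each of these 12 basal samples than in all 18 others and 83 were higher, of which 23 and 22 were called in FoxK2 KD cells. The pick itself fixed their direction and lack of overlap in FoxK2 KD cells, so these counts are not a result of their own. Eno1 and Krt8 were in the first set and Ccl2, Npm1 and Nr1d2 in the second. Of 251 tested pseudogenes 83 were higher and 19 lower after insulin in FoxK2 KD cells, against 560 and 441 of 10683 protein-coding genes, while in DKD cells 24 pseudogenes were higher and 25 lower. The labels name no batch. All basal FoxK2 KD samples were among the 12 and all insulin samples among the 18. A split of the libraries and the insulin treatment therefore cannot be told apart here. Leaving out pseudogenes and these genes gave 609 higher and 456 lower, which does not test the part of such a split in the remaining calls.

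**Figure D4:**
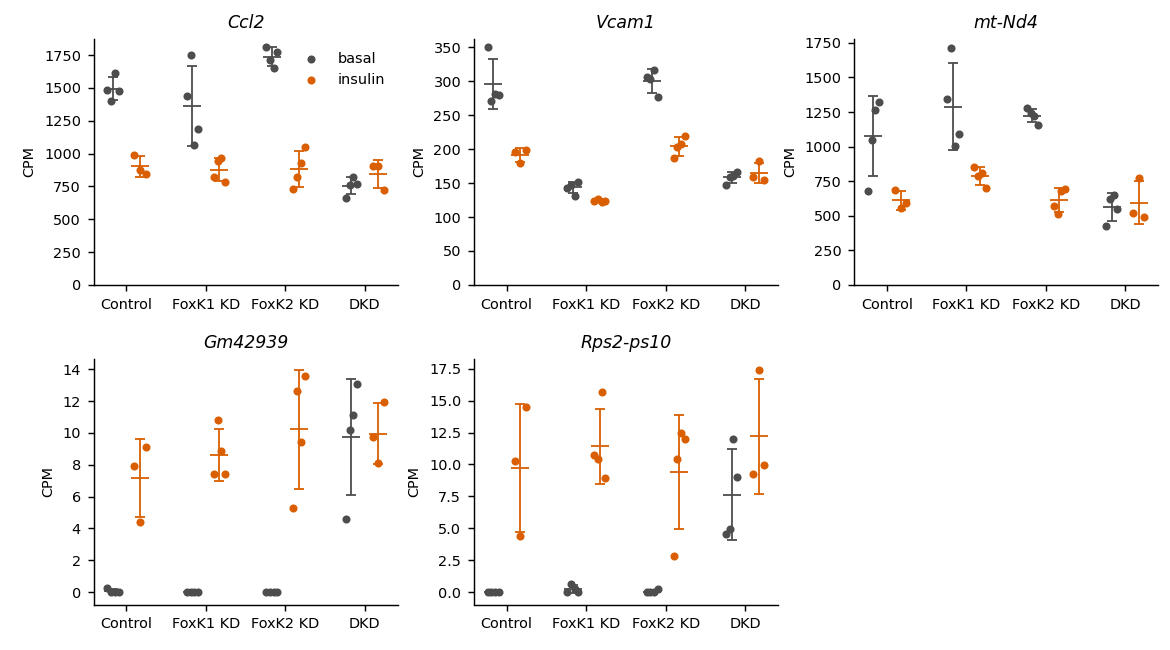
CPM of 5 genes in the 4 genotypes at basal (grey) and after insulin (orange), with a point for each sample, the group mean and the SD. After insulin, samples of FoxK2 KD and DKD cells overlapped for each gene except Vcam1, and the basal levels of Ccl2, Vcam1 and mt-Nd4 were higher, and those of Gm42939 and Rps2-ps10 lower, in FoxK2 KD than in DKD cells.

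GC content moved with these results as well. Across 11346 genes the Spearman correlation of the log2 change with GC content was 0.241 for FoxK2 KD, 0.076 for Control, 0.326 for FoxK1 KD and -0.211 for DKD cells, and 0.495 for the difference between FoxK2 KD and DKD cells. With the trend on GC and length taken out, the difference from DKD cells was called for 63 genes higher and 97 lower, and the insulin effect in FoxK2 KD cells for 597 higher and 529 lower. The medians of 5 lists were then -0.43 for the FoxO-type, 0.60 for the ATF4, 0.54 for the chaperone, 0.46 for the cholesterol and 0.42 for the glycolysis list. The fatty acid and triglyceride synthesis list then had 2 called higher in place of 5, with a median of 0.31. Acly, Fasn and Mlxipl lost the call. Without each of the 8 samples in turn, the FoxO-type list had 6 to 8 lower, the ATF4 list 20 to 21 higher and the S phase list 15 to 19 higher.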

How the data were processed

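Per sample, the authors deposited a table of whole-number counts for 49089 versioned Ensembl genes, not normalized. The submitters' processing notes name CASAVA 1.8, STAR 2.4.2a, featureCounts and GRCm38.p4, and the paper names limma for its tests. Strand and the handling of reads that map to several places are not given in the sources used here. Annotation (names, types, GC content, lengths) was taken from GENCODE M21 (48349 identifiers matched), and promoters from RefSeq (GRCm38.p6). Totals were 3195833 to 4668774 counts in the 8 FoxK2 KD samples and 2141460 to 5668270 in all 30.

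Genes were filtered with edgeR's filterByExpr (11368 left), scaled by TMM and put into a single quasi-likelihood model with 8 group means (edgeR 4.0.16 under R 4.3.3), with Benjamini-Hochberg adjustment over all tested genes and a call needing both an FDR under 0.25 and a change of more than 1.5-fold, the thresholds of the study. SE is the absolute log2 change divided by the square root of F. CPM used TMM-scaled library sizes, and log2-CPM a prior count of 2. Scripts were tested on simulated data. Genes were named by rule: the targeted genes, the 10 largest rises and 10 largest falls of protein-coding genes and the 3 largest rises of any type (FDR below 0.05, mean log2-CPM of at least 1, no overlap), the 4 smallest p of each list and the 5 largest differences per direction; other genes named among the called members, or for promoter letters, were chosen after their values were seen. The comparison, the gene lists and their members were chosen with earlier results of these data known.

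Alternatives were DESeq2 1.42.0, limma-voom (limma 3.58.1), upper-quartile scaling, other filters and thresholds, only the groups compared, a GC and length correction, a replicate block and each sample left out. Samples of a group differed by more than counting noise (chi-square per degree of freedom 2.02 to 4.07), so none were counted as copies. Some items are not reported here.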

Additional observations from a re-analysis of the deposited data

Results flagged for a closer look

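Each group of 4 FoxK2 KD samples was examined for a single sample far from the other 3 (Dixon's test) in 146 named genes. Of 292 groups 11 had one, and chance gives about 1 in 20. Among genes that changed, Mmp13 was at 1.54 CPM in basal replicate 4 (the others 0.865 to 0.941), Fbxo32 at 28.4 CPM in insulin replicate 4 (23.4 to 23.7), Pgk1 at 339 CPM in insulin replicate 2 (280 to 289) and P4ha1 at 95.5 CPM in basal replicate 3 (90.6 to 91.4). Rps2-ps10 was at 0.22 CPM in basal replicate 4 with the others at 0, and Gm21399 at 2.42 CPM in insulin replicate 1 (9.1 to 9.9). Among genes not called, the single samples were Pik3ca at 178 CPM in basal replicate 1 (155 to 156), Rpe at 79.3 CPM in basal replicate 3 (101 to 105), Ncl at 923 CPM in basal replicate 4 (1020 to 1040), Nr5a2 at 4.71 CPM in basal replicate 2 (7.69 to 8.03) and Sox9 at 199 CPM in basal replicate 2 (225 to 230).

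For 18 named genes the difference in insulin effect between FoxK2 KD and DKD cells was called by the test of the difference. The effect in FoxK2 KD cells was higher for Gm42939 (8.12 on the log2 scale), Rps2-ps10 (5.92), Gm43712 (2.83), Gm21399 (2.82), Rpl39-ps (2.19) and Cdh24 (1.46). It was lower for Snord49a (-3.00), Gm14305 (-2.31), Katnal2 (-1.91), Far2 (-1.71), Abca6 (-1.68), Serpina3g (-1.47), Dnm3 (-1.22), Ccl2 (-1.14), mt-Nd4 (-1.08), Uqcr10 (-0.68), Tcp11l2 (-0.68) and Vcam1 (-0.62). Values fitted against groups at or near 0 depend on the prior count. Far2 had a log2 change of -0.05 in FoxK2 KD cells, and one of 1.66 in DKD cells.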

How the results depend on the processing

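In FoxK2 KD cells the calls moved by less than 1.5 times from 719 higher and 492 lower under DESeq2 (689 and 485), limma-voom, other scaling, the fit of only these groups, each sample left out (680 to 748 and 488 to 532) and, chosen after seeing the data, without pseudogenes and the genes that split the samples (609 and 456). A minimum of 10 counts in every sample, which tests fewer genes, gave 407 and 304, and no fold minimum 2847 and 2778. The difference from Control was 0 in both directions except with any gene of 1 count tested (28 and 9). The difference from DKD (193 and 177) gave 125 higher with DESeq2, 63 and 97 with the GC and length trend taken out, 35 and 48 at an FDR below 0.05, and 542 and 596 without the fold minimum. Leaving out single samples gave 101 to 246 and 95 to 256: 110 and 106 without DKD basal replicate 1, 101 and 95 without DKD insulin replicate 2, and 97 lower without FoxK2 KD insulin replicate 1. The cause was not tested.

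Same-numbered basal and insulin samples deviated with correlations of 0.018, -0.006, 0.125 and -0.01, and differently numbered ones with -0.162 to 0.102. Weak correlations cannot show whether same-numbered samples shared a culture or a day. With the replicate block, 715 genes were higher and 495 lower, and with the block and the GC and length trend taken out the difference from DKD was 57 and 92. Of 2473 alternative values for 148 named genes, 50 lost and 40 gained a call and 0 reversed. Of the called genes 16 lost the call under at least 1 alternative, Myc, Acly, Fasn, Mcm2 and Hmox1 among them. At this depth a gene below 1 CPM rests on a few reads a sample.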
